A study of Homo sapiens with 10 samples.

Results

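Glycolysis and the response to low oxygen were followed through 38 of the 58735 genes of a count table from A253 cells, a human line grown from a squamous cell carcinoma of the salivary gland. The members were taken by gene name, 23 for glucose uptake, glycolysis and lactate handling and 15 for the hypoxia response. Each name was found in the table. The choice was made with earlier results of these data known, so counts of members beside the share of all genes are descriptive. The study asked how loss of DUSP1, a phosphatase that switches off MAP kinases, changes gene expression in these cells. Control cells carried a guide RNA against dTomato, a fluorescent protein gene that human cells lack. The DUSP1 cells were clones, Cl1 and Cl10, each grown from a single cell and heterozygous for a deletion of DUSP1 exon 2. The paper reports no DUSP1 protein in these clones compared with control cells, and proposes inactivating indels in the wild-type alleles. The guides were delivered in a vector with puromycin resistance and Cas9 by a lentivirus selected with blasticidin, and cells of the 3 groups were grown in DMEM with 10% fetal bovine serum at 5% CO2. Each group had 2 libraries, and 4 samples of a separate SOX2 experiment were not analysed.

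Glycolysis turns glucose into pyruvate in the cytosol and yields ATP without oxygen. Lactate dehydrogenase then reduces pyruvate to lactate, which leaves the cell through monocarboxylate transporters. When oxygen is scarce, prolyl hydroxylases stop marking the HIF alpha subunits for destruction. HIF then binds DNA and raises the transcription of most glycolytic enzymes and of genes for pH control, mitophagy and collagen folding.

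The control libraries held 66584988 and 53223425 counts, the Cl1 libraries 70986593 and 49840300, and the Cl10 libraries 57635596 and 47016495. Levels are given as CPM, the counts of a gene in every 1000000 counts of a library after edgeR's TMM scaling, which evens out differences in library composition. DUSP1 (ENSG00000120129, chr5:172768096-172771195 of hg38, minus strand, GENCODE v44) was measured at 13.1 and 11.1 CPM in the control libraries, 5.33 and 6.05 CPM in Cl1, and 8.59 and 7.19 CPM in Cl10. Each clone lay below the control libraries, and Cl1 lay below Cl10. DUSP1 fell in Cl1 (log2 fold change -1.07, SE 0.15, adjusted p = 0.000292, edgeR's quasi-likelihood test with Benjamini-Hochberg adjustment) and in Cl10 (log2 fold change -0.59, SE 0.13, adjusted p = 0.0113, the same test), where the call was lost without Cl10 replicate 2 (-0.48). On the log2 scale a value of 1 is a 2-fold higher level, and SE is the standard error. Counts per gene do not show the exon 2 deletion itself.

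Of 8 markers of squamous or general epithelium, 8 had a mean of at least 1 CPM, led by the keratin gene KRT5. Their levels summed to 12090 and 11840 CPM in the control libraries, 14490 and 14320 in Cl1, and 13430 and 12960 in Cl10. Of 5 salivary acinar markers, 0 reached that level, with sums from 0.124 to 0.430 CPM and BHLHA15 as the most abundant. The epithelial genes were thus present and the acinar genes near 0. Among markers of other cell types, 2 of 6 fibroblast genes (COL1A1 and COL3A1), 1 of 4 endothelial genes (VWF) and 1 of 5 leukocyte genes (CD14) passed 1 CPM. The control, Cl1 and Cl10 libraries, in this order, summed to 51.03, 44.9, 46.5, 48.4, 30.3 and 31.96 CPM for fibroblast, 4.45, 2.74, 5.73, 7.64, 4.14 and 3.19 CPM for endothelial and 6.39, 7.20, 14.1, 10.3, 10.3 and 8.82 CPM for leukocyte markers.

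A gene passed when its adjusted p was under 0.05 in edgeR's quasi-likelihood test with Benjamini-Hochberg adjustment over all genes tested, with 2 libraries against 2. A second rule also asked for more than a 2-fold change. By the first rule, markers moved too. Among the epithelial genes, CDH1 (0.84), DSP (0.65) and ITGA6 (0.56) rose in Cl1. In Cl10 CDH1 (0.35) and ITGA6 (0.97) rose and KRT17 (-0.50) fell. Cl10 was lower than Cl1 for KRT5 (-0.38), KRT17 (-0.78), CDH1 (-0.49), EPCAM (-0.36) and DSP (-0.60) and higher for TP63 (0.37) and ITGA6 (0.41). Of other cell types, VWF (0.93) and CD14 (0.87) rose in Cl1, and in Cl10 CD14 (0.50) and CDH5 (2.28, under 1 CPM) rose and COL1A1 (-0.67) and COL3A1 (-0.54) fell, in log2 fold change. Cl10 was lower than Cl1 for VWF (-1.05), COL1A1 (-0.78), COL3A1 (-0.36) and CD14 (-0.38) and higher for CDH5 (2.49). Their part in the values of the members was not tested. All libraries are of the A253 line and each clone grew from a single cell, so a mixture of cell types is not part of the design. In bulk RNA, a change in the share of A253 cells that express a gene and in RNA per cell cannot be told apart. Nothing in the labels says that the 2 libraries of a group came from separate cultures, so the p-values measure the spread between these samples, which may be technical. Both clones were compared with the same control libraries, and their values stand side by side.

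In Cl1, most glycolysis members and most hypoxia members were higher than in the control cells. Of the 23 glycolysis members, 14 rose, where 12.4% of the 20153 genes tested rose, and SLC2A3 fell, where 12.8% of all genes fell. Of the 15 hypoxia members, 8 rose and CA12 fell. The median log2 fold change was 0.49 for glycolysis and 0.73 for hypoxia members (0.45 with the median of the 50 nearest tested genes subtracted), beside -0.013 for all genes tested. Groups did not overlap, with Cl1 higher, for 16 glycolysis and 11 hypoxia members (29.3% of all genes), and with Cl1 lower for 2 and 1 (33.8% of all genes). The members that rose more than 2-fold were SLC2A1, PFKFB3 and PDK1 in glycolysis and EGLN3, CA9 and ANGPTL4 in the hypoxia response, where 4.27% of all genes did, and SLC2A3 and CA12 fell by more than 2-fold, where 3.27% did. The change was under 2-fold in some alternatives: for PFKFB3 by library size scaling (0.95) and without control replicate 2 (0.88), and for ANGPTL4 without Cl1 replicate 1 (0.70) and without control replicate 1 (0.93). The same held for CA12 without Cl1 replicate 2 (-0.90), without control replicate 2 (-0.95), with DESeq2 size factors (-0.998) and with the local median subtracted (-0.89). SLC2A3 was under 2-fold without Cl1 replicate 2 (-0.93) and without control replicate 1 (-0.998). Other members went past 2-fold higher: ADM (1.0025), BNIP3 (1.23) and NDRG1 (1.11) without Cl1 replicate 2, and ADM (1.09) and BNIP3 (1.13) without control replicate 2. BNIP3 did so too with the local median subtracted (1.03). The count of 14 moved with single libraries, as did the calls over all genes: without Cl1 replicate 1, 6 glycolysis members and 7.0% of all genes passed higher, and without Cl1 replicate 2, 11 and 6.8%. In such fits the lone library of a group was assumed to vary like the other group.

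In Cl10, more glycolysis members passed as lower than as higher, in a comparison where 42.5% of all genes passed. PFKFB3 rose, where 20.6% of the 19875 genes tested rose, and 9 of the 23 fell, where 21.8% of all genes fell. Of the hypoxia members, EGLN3 and ADM rose and P4HA1, P4HA2 and KDM3A fell. The median log2 fold change was -0.22 for glycolysis and -0.082 for hypoxia members, beside -0.011 for all genes. With the local median (of the 50 nearest tested genes) subtracted the glycolysis median was -0.079, and leaving out a control library gave a hypoxia median of -0.23 (replicate 1 left out) or -0.035 (replicate 2 left out). Groups did not overlap, with Cl10 higher, for 4 glycolysis and 3 hypoxia members (35.3% of all genes), and with Cl10 lower for 15 and 7 (38.6% of all genes). Past 2-fold, SLC16A3 and P4HA1 fell, where 7.44% of all genes fell and 5.98% rose. With the local median subtracted both were under 2-fold (-0.54 and -0.93). LDHB was past 2-fold lower without control replicate 1 (-1.04). The counts moved with single libraries, as did the calls over all genes. Without Cl10 replicate 1, 5 glycolysis members and 1 hypoxia member passed lower (13.6% of all genes), and without Cl10 replicate 2, 6 and 1 (13.2%). With control replicate 1 left out, 13 and 7 passed lower (28.8%) and 2 and 4 higher (28.5%). With control replicate 2 left out, 13 and 3 passed lower (27.9%) and 6 and 4 higher (26.6%).

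**Figure D1:**
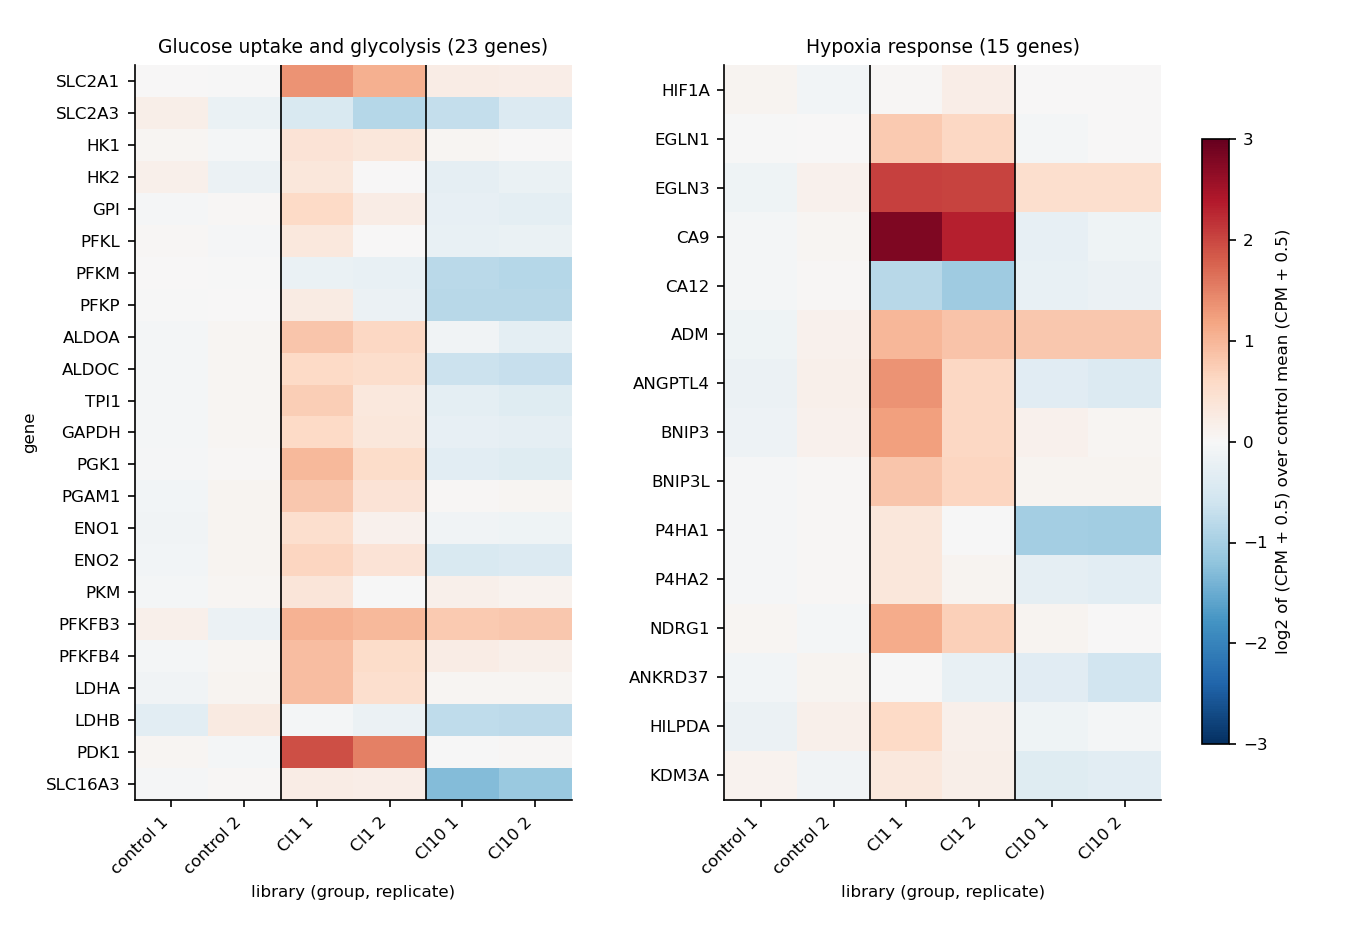
Each member (vertical axis) in each of the 6 libraries (horizontal axis), coloured by log2 of its CPM plus 0.5 over the control mean plus 0.5, on a scale from -3 to 3. The Cl1 columns are mostly above the control and the Cl10 columns mostly near or below it, with the strongest colour for CA9 in Cl1, at 94.3 and 68.2 CPM beside 12.7 and 13.6 CPM in the control libraries.

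Most members differed between the clones when these were compared directly, a comparison in which 49.0% of all genes passed. Cl10 was lower than Cl1 for 21 of 23 glycolysis members and 11 of 15 hypoxia members, where 24.1% of the 19818 genes tested were lower. CA12 was the hypoxia member that was higher in Cl10 than in Cl1, where 24.9% of all genes were. The median log2 fold change of Cl10 against Cl1 was -0.66 for glycolysis and -0.65 for hypoxia members, beside -0.0012 for all genes. Groups did not overlap, with Cl10 lower, for 21 and 14 members (37.2% of all genes). Past 2-fold lower were PGK1, ALDOC, PDK1 and SLC16A3 in glycolysis and EGLN3, CA9, ANGPTL4 and P4HA1 among hypoxia members, where 6.28% of all genes were lower and 4.47% higher. Without Cl1 replicate 1 PGK1 was under 2-fold (-0.91), as was SLC16A3 with the local median subtracted (-0.79). Further members went past 2-fold lower in some alternatives. Without Cl1 replicate 2 these were SLC2A1 (-1.13), BNIP3 (-1.13), ENO2 (-1.10), PFKP (-1.07), TPI1 (-1.05), ALDOA (-1.05) and NDRG1 (-1.04). SLC2A1 was also past it with at least 10 counts in every library (-1.004), and ALDOA with the local median subtracted (-1.06).

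**Figure D2:**
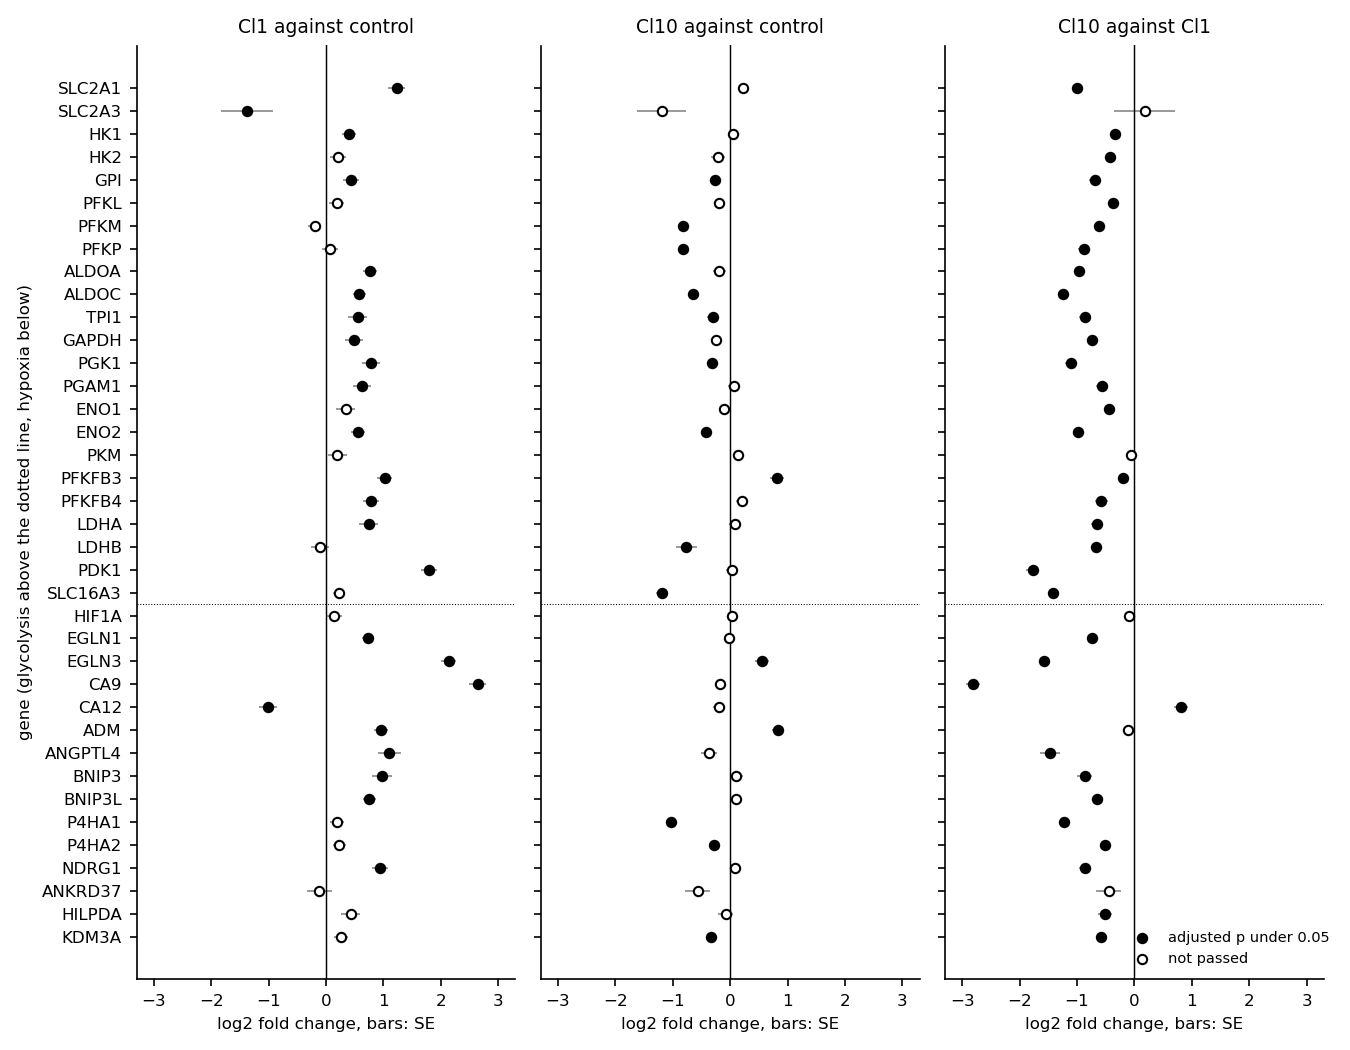
Log2 fold change (horizontal axis) of each member (vertical axis) in the 3 comparisons, with bars of 1 SE and filled symbols for an adjusted p under 0.05. CA9 reaches 2.65 in Cl1 against control and -2.82 in Cl10 against Cl1.

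Glucose enters through facilitative transporters. SLC2A1 (GLUT1; ENSG00000117394, chr1:42925353-42958893, minus strand), the basal transporter of most cells, was measured at 701 and 693 CPM in the control libraries, 1784 and 1452 CPM in Cl1, and 820.0 and 796 CPM in Cl10. The Cl1 libraries were far above the rest, and both Cl10 libraries lay slightly above both control libraries. SLC2A1 rose 2.34-fold in Cl1 (log2 fold change 1.23, SE 0.15, adjusted p = 9.44e-05, edgeR's quasi-likelihood test with Benjamini-Hochberg adjustment). In Cl10 against control it gave log2 fold change 0.23, SE 0.083, adjusted p = 0.0605 by the same edgeR quasi-likelihood test with Benjamini-Hochberg adjustment, and against Cl1 log2 fold change -1.0, SE 0.082, adjusted p = 9.88e-07. Its Cl10 value passed without control replicate 1 (0.23), without control replicate 2 (0.22) and after subtraction of the local median, that of the 50 nearest tested genes (0.36). SLC2A3 (GLUT3), a transporter of high affinity found in neurons, held few reads, with 54 and 27 counts in the control libraries, 23 and 7 in Cl1, and 12 and 18 in Cl10. These are 0.801 and 0.506 CPM in the control libraries, 0.344 and 0.14 CPM in Cl1, and 0.205 and 0.373 CPM in Cl10, so the clones lay below the control cells and overlapped with each other. SLC2A3 fell in Cl1 (log2 fold change -1.37, SE 0.45, adjusted p = 0.042) and gave log2 fold change -1.19, SE 0.43, adjusted p = 0.0589 in Cl10 and log2 fold change 0.18, SE 0.53, adjusted p = 0.804 between the clones, by edgeR's quasi-likelihood test with Benjamini-Hochberg adjustment. The Cl1 call was lost in DESeq2 (-1.40), without Cl1 replicate 2 (-0.93) and without control replicate 1 (-1.0), and the value was -2.18 without Cl1 replicate 1. In Cl10 it passed without control replicate 2 (-1.48), without Cl10 replicate 2 (-1.66), with no filter (-1.21) and with at least 10 counts asked of every library (-1.21), while it was -0.80 without Cl10 replicate 1, and between the clones the sign turned without Cl1 replicate 2 (-0.27) and without Cl10 replicate 2 (-0.28). Pseudogenes of SLC2A3 held 8.51% as many counts as the gene, and for the other members this share was at most 2.16%.

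Lactate and protons leave through SLC16A3 (MCT4; ENSG00000141526), a monocarboxylate transporter of glycolytic cells. SLC16A3 was measured at 81.03 and 84.2 CPM in the control libraries, 96.3 and 95.4 CPM in Cl1, and 33.5 and 37.98 CPM in Cl10. Cl10 was the low group, and Cl1 lay just above the control libraries. It fell by more than 2-fold in Cl10 (log2 fold change -1.19, SE 0.094, adjusted p = 0.000186), was lower in Cl10 than in Cl1 (log2 fold change -1.42, SE 0.069, adjusted p = 1.59e-08) and gave log2 fold change 0.23, SE 0.11, adjusted p = 0.143 in Cl1, each by edgeR's quasi-likelihood test with Benjamini-Hochberg adjustment. Its 50 nearest tested genes were low in Cl10 too, with a median log2 fold change of -0.66. With the local median of each comparison subtracted, SLC16A3 was at -0.54 in Cl10, at -0.79 in Cl10 against Cl1 and at 0.33 in Cl1, and passed in all 3.

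PFKFB3 and PFKFB4 make fructose 2,6-bisphosphate, the signal that speeds up phosphofructokinase. PFKFB3 (ENSG00000170525) was measured at 113 and 91.04 CPM in the control libraries, 209.6 and 201 CPM in Cl1, and 176 and 179.8 CPM in Cl10, so that it was high in both clones. It rose in Cl1 (log2 fold change 1.02, SE 0.13, adjusted p = 0.000146) and in Cl10 (log2 fold change 0.82, SE 0.11, adjusted p = 0.0016), by edgeR's quasi-likelihood test with Benjamini-Hochberg adjustment. Cl10 lay below Cl1 by a smaller margin (log2 fold change -0.20, SE 0.058, adjusted p = 0.0107, edgeR quasi-likelihood test, Benjamini-Hochberg). That last call was lost with scaling by library size alone (-0.13), in 1 fit over the 6 libraries (-0.21), without Cl10 replicate 1 (-0.18) and without Cl10 replicate 2 (-0.22). PFKFB4 was measured at 10.3 and 11.3 CPM in the control libraries, 20.8 and 15.9 CPM in Cl1, and 12.7 and 11.9 CPM in Cl10. It was high in Cl1, and the Cl10 libraries lay just above the control libraries. PFKFB4 rose in Cl1 (log2 fold change 0.79, SE 0.14, adjusted p = 0.00185), gave log2 fold change 0.21, SE 0.10, adjusted p = 0.143 in Cl10 and was lower in Cl10 than in Cl1 (log2 fold change -0.58, SE 0.11, adjusted p = 0.000889), by edgeR's quasi-likelihood test with Benjamini-Hochberg adjustment. Without control replicate 2 the Cl10 value passed (0.28), while it was 0.13 without control replicate 1, and without Cl1 replicate 1 the difference between the clones was -0.38.

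PDK1 (ENSG00000152256) phosphorylates pyruvate dehydrogenase and so keeps pyruvate out of the TCA cycle. It was measured at 10.6 and 9.63 CPM in the control libraries, 40.1 and 29.6 CPM in Cl1, and 10.1 and 10.4 CPM in Cl10, which put Cl1 alone high and left the Cl10 libraries between the control libraries. PDK1 rose 3.48-fold in Cl1 (log2 fold change 1.80, SE 0.14, adjusted p = 3.71e-06), gave log2 fold change 0.029, SE 0.11, adjusted p = 0.847 in Cl10 and was lower in Cl10 than in Cl1 (log2 fold change -1.77, SE 0.12, adjusted p = 1.68e-07), by edgeR's quasi-likelihood test with Benjamini-Hochberg adjustment. The small Cl10 value changed sign with the local median subtracted (-0.071) and without control replicate 2 (-0.042).

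Promoters are shown for the glycolysis members that passed 2-fold in a clone, except SLC2A3, for which none was available. They are shown because the core of the hypoxia response element, the letters ACGTG or GCGTG on either strand, can be read in them. They come from RefSeq (GRCh38.p14), 250 bases before to 50 after the start, 5′ to 3′ on the gene's strand, with the core in capitals, and for genes with several starts the promoter nearest the canonical start of GENCODE v44 was taken. The regions are chr1:42958819-42959118 (minus strand) for SLC2A1, chr10:6202682-6202981 (plus) for PFKFB3, chr2:172555840-172556139 (plus) for PDK1 and chr17:82228792-82229091 (plus) for SLC16A3.
SLC2A1: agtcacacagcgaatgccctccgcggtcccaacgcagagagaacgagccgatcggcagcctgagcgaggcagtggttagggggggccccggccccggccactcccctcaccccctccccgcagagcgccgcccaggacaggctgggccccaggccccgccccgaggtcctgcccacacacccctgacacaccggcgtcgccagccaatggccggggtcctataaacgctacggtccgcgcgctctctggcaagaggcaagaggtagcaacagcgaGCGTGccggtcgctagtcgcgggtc
PFKFB3: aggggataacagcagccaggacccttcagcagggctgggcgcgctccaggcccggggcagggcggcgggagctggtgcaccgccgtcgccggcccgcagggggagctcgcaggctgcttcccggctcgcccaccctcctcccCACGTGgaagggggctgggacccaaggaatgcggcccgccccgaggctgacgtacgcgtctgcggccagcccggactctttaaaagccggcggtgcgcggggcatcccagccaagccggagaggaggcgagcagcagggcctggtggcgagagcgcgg
PDK1: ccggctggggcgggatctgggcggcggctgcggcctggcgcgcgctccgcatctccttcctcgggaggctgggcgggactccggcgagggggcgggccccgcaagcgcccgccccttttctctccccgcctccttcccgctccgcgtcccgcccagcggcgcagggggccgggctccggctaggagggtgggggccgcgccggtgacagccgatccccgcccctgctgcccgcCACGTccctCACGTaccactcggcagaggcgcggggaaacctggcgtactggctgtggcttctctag
SLC16A3: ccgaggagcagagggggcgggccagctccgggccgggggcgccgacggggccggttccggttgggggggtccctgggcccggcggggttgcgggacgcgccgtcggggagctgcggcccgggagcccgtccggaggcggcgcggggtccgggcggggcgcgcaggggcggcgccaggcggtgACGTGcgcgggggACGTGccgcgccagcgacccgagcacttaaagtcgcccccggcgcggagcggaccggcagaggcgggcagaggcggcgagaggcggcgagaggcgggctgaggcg
The SLC2A1 promoter holds 1 match, whose first base lies 25 bases after the start, and the PFKFB3 promoter holds a palindrome read on both strands as 2 matches. In PDK1, both matches are on the opposite strand and begin 17 and 8 bases before the start. In SLC16A3, both are on the gene's strand, 68 and 55 bases before it.

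**Figure D3:**
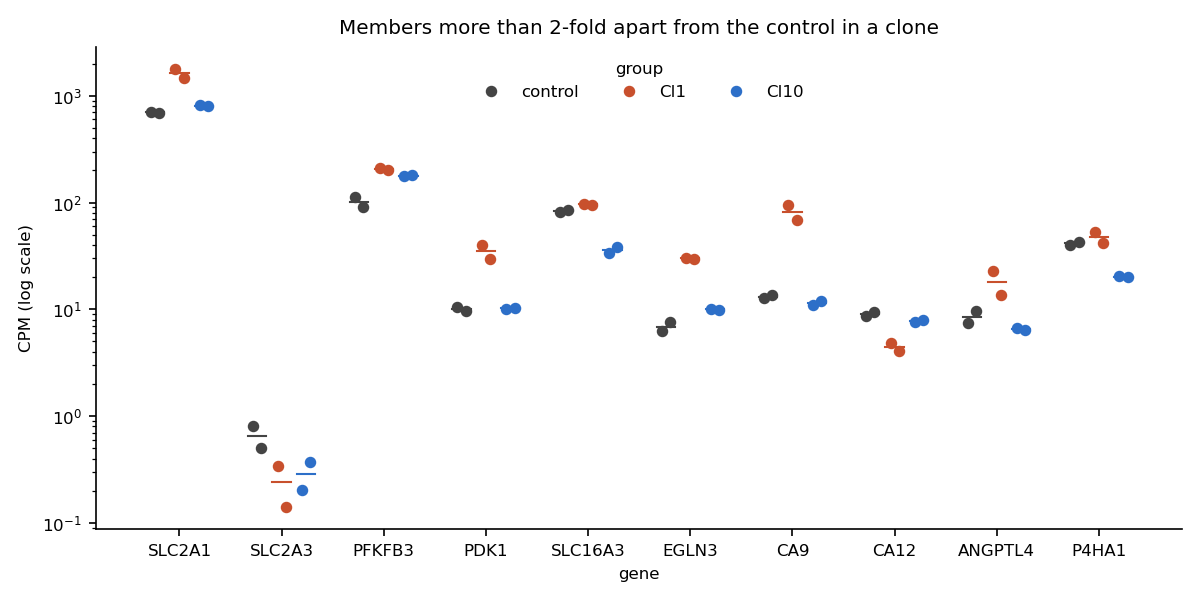
CPM on a log axis (vertical) of the 10 members that changed by more than 2-fold with an adjusted p under 0.05 in a clone against control, in the 3 groups (horizontal), with a dot for each library and a line at the mean. PDK1 stands at 40.1 and 29.6 CPM in Cl1 and between 9.63 and 10.6 CPM in the other libraries.

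Hexokinases trap glucose as glucose 6-phosphate. HK2, the form induced in many tumours, was measured at 94.2 and 73.9 CPM in the control libraries, 106 and 85.4 CPM in Cl1, and 69.6 and 73.1 CPM in Cl10. Cl1 overlapped with the control libraries, and Cl10 lay just below them. HK2 gave log2 fold change 0.20, SE 0.14, adjusted p = 0.318 in Cl1 and log2 fold change -0.22, SE 0.12, adjusted p = 0.183 in Cl10, and was lower in Cl10 than in Cl1 (log2 fold change -0.42, SE 0.081, adjusted p = 0.000883), by edgeR's quasi-likelihood test with Benjamini-Hochberg adjustment. Its Cl1 value passed as higher without control replicate 1 (0.38) and was 0.046 without control replicate 2 and 0.055 without Cl1 replicate 1. In Cl10 it passed as lower without control replicate 2 (-0.39) and was -0.049 without control replicate 1. HK2 was -0.28 between the clones without Cl1 replicate 1. GPI, which makes fructose 6-phosphate, was measured at 334 and 351 CPM in the control libraries, 519.6 and 399.8 CPM in Cl1, and 288 and 279 CPM in Cl10, with Cl1 above and Cl10 below the control libraries. GPI rose in Cl1 (log2 fold change 0.44, SE 0.14, adjusted p = 0.0393), fell in Cl10 (log2 fold change -0.26, SE 0.083, adjusted p = 0.0426) and was lower in Cl10 than in Cl1 (log2 fold change -0.69, SE 0.091, adjusted p = 4.71e-05), by edgeR's quasi-likelihood test with Benjamini-Hochberg adjustment. The rise was lost by library size scaling (0.37), without Cl1 replicate 1 (0.26) and without Cl1 replicate 2 (0.60). The fall was lost with the local median subtracted (-0.065), in 1 fit over the 6 libraries (-0.26), without Cl10 replicate 1 (-0.27) and without Cl10 replicate 2 (-0.24).

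Phosphofructokinase commits sugar to glycolysis and is built from liver (PFKL), muscle (PFKM) and platelet (PFKP) subunits. PFKL was measured at 159.9 and 152 CPM in the control libraries, 193 and 157 CPM in Cl1, and 134 and 135 CPM in Cl10. Cl1 overlapped with the control libraries, and both Cl10 libraries lay below them. PFKL gave log2 fold change 0.18, SE 0.13, adjusted p = 0.319 in Cl1 and log2 fold change -0.20, SE 0.079, adjusted p = 0.0818 in Cl10, and was lower in Cl10 than in Cl1 (log2 fold change -0.38, SE 0.078, adjusted p = 0.00135), by edgeR's quasi-likelihood test with Benjamini-Hochberg adjustment. With each library left out, PFKL in Cl1 ranged from 0.044 to 0.31. Its Cl10 value passed without control replicate 1 (-0.17), without control replicate 2 (-0.24) and with the local median subtracted (-0.39), and the difference between the clones was -0.24 without Cl1 replicate 1. PFKM was measured at 94.9 and 93.7 CPM in the control libraries, 82.2 and 80.2 CPM in Cl1, and 53.9 and 51.9 CPM in Cl10. Both clones lay below the control libraries, Cl10 by far the more. PFKM gave log2 fold change -0.20, SE 0.11, adjusted p = 0.199 in Cl1, fell in Cl10 (log2 fold change -0.82, SE 0.077, adjusted p = 0.000352) and was lower in Cl10 than in Cl1 (log2 fold change -0.62, SE 0.057, adjusted p = 2.56e-06), by edgeR's quasi-likelihood test with Benjamini-Hochberg adjustment. Its 50 nearest tested genes had a median of -0.31 in Cl10, and with the local median of each comparison subtracted PFKM stayed past the threshold at -0.51 against control and -0.38 against Cl1. PFKP was measured at 209 and 212 CPM in the control libraries, 249 and 188 CPM in Cl1, and 118 and 119 CPM in Cl10. The Cl1 libraries spanned the control libraries, and Cl10 lay well below both. PFKP gave log2 fold change 0.063, SE 0.14, adjusted p = 0.781 in Cl1, fell in Cl10 (log2 fold change -0.82, SE 0.078, adjusted p = 0.000365) and was lower in Cl10 than in Cl1 (log2 fold change -0.88, SE 0.095, adjusted p = 8.75e-06), by edgeR's quasi-likelihood test with Benjamini-Hochberg adjustment. Its small Cl1 value changed sign by library size scaling (-0.0097) and without Cl1 replicate 1 (-0.14).

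Aldolase splits fructose 1,6-bisphosphate, and triose phosphate isomerase interconverts the products. ALDOA was measured at 13.8 and 15.05 CPM in the control libraries, 26.1 and 22.7 CPM in Cl1, and 13.3 and 11.6 CPM in Cl10. It was high in Cl1, and Cl10 lay just below the control libraries. ALDOA rose in Cl1 (log2 fold change 0.77, SE 0.12, adjusted p = 0.00069), gave log2 fold change -0.19, SE 0.11, adjusted p = 0.199 in Cl10 and was lower in Cl10 than in Cl1 (log2 fold change -0.96, SE 0.092, adjusted p = 3.43e-06), by edgeR's quasi-likelihood test with Benjamini-Hochberg adjustment. In Cl10 ALDOA passed as lower without control replicate 1 (-0.26) and was -0.10 without Cl10 replicate 2. Of its exon bases, 42.8% are shared on the same strand with ENSG00000285043, so reads of ALDOA may have been left out or split in counting, and its level is uncertain. ENSG00000285043 passed as higher in Cl10 than in the control (log2 fold change 0.58) and than in Cl1 (0.49), and did not pass in Cl1 (0.089). Its part in the ALDOA values was not tested. ALDOC, the brain form, was measured at 107 and 114 CPM in the control libraries, 166 and 160.5 CPM in Cl1, and 70.6 and 67.8 CPM in Cl10. The 3 groups stood apart, Cl1 highest and Cl10 lowest. ALDOC rose in Cl1 (log2 fold change 0.58, SE 0.11, adjusted p = 0.00284), fell in Cl10 (log2 fold change -0.66, SE 0.082, adjusted p = 0.00106) and was 2.35-fold lower in Cl10 than in Cl1 (log2 fold change -1.24, SE 0.058, adjusted p = 1.36e-08), by edgeR's quasi-likelihood test with Benjamini-Hochberg adjustment. TPI1 was measured at 1010 and 1097 CPM in the control libraries, 1754 and 1304 CPM in Cl1, and 861 and 821 CPM in Cl10, with the groups in the same order and apart. TPI1 rose in Cl1 (log2 fold change 0.55, SE 0.16, adjusted p = 0.0239), fell in Cl10 (log2 fold change -0.31, SE 0.091, adjusted p = 0.0318) and was lower in Cl10 than in Cl1 (log2 fold change -0.86, SE 0.10, adjusted p = 1.98e-05), by edgeR's quasi-likelihood test with Benjamini-Hochberg adjustment. Its rise was lost without Cl1 replicate 1 (0.34) and with the local median subtracted (0.43). Its fall was lost with the local median subtracted (-0.079), in 1 fit over the 6 libraries (-0.31), without Cl10 replicate 1 (-0.34) and without Cl10 replicate 2 (-0.28).

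The enzymes that harvest energy come next. GAPDH, which oxidises glyceraldehyde 3-phosphate and often serves as a reference gene, was measured at 2871 and 3157 CPM in the control libraries, 4582 and 3798 CPM in Cl1, and 2533 and 2495 CPM in Cl10. Cl1 lay above and Cl10 below the control libraries. GAPDH rose in Cl1 (log2 fold change 0.49, SE 0.16, adjusted p = 0.0399), gave log2 fold change -0.24, SE 0.095, adjusted p = 0.0768 in Cl10 and was lower in Cl10 than in Cl1 (log2 fold change -0.73, SE 0.081, adjusted p = 1.10e-05), by edgeR's quasi-likelihood test with Benjamini-Hochberg adjustment. The rise was lost without Cl1 replicate 1 (0.37), without Cl1 replicate 2 (0.61) and with the local median subtracted (0.37). The Cl10 value passed as lower without control replicate 1 (-0.32), without control replicate 2 (-0.18) and with no filter (-0.26), and was near 0 with the local median subtracted (-0.038). PGK1 (ENSG00000102144, chromosome X), which makes ATP, was measured at 1198 and 1259 CPM in the control libraries, 2401 and 1798 CPM in Cl1, and 982 and 959 CPM in Cl10. The groups stood apart, Cl1 highest and Cl10 lowest. PGK1 rose in Cl1 (log2 fold change 0.79, SE 0.16, adjusted p = 0.0036), fell in Cl10 (log2 fold change -0.32, SE 0.087, adjusted p = 0.0224) and was 2.15-fold lower in Cl10 than in Cl1 (log2 fold change -1.11, SE 0.10, adjusted p = 2.08e-06), by edgeR's quasi-likelihood test with Benjamini-Hochberg adjustment. Its rise was lost without Cl1 replicate 1 (0.58), and its fall in 1 fit over the 6 libraries (-0.33), without Cl10 replicate 1 (-0.33) and without Cl10 replicate 2 (-0.31).

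PGAM1 moves the phosphate group of phosphoglycerate, and enolase makes phosphoenolpyruvate. PGAM1 was measured at 514 and 577 CPM in the control libraries, 952 and 721 CPM in Cl1, and 560.0 and 566 CPM in Cl10, high in Cl1 and, in Cl10, between the control libraries. PGAM1 rose in Cl1 (log2 fold change 0.63, SE 0.15, adjusted p = 0.0098), gave log2 fold change 0.063, SE 0.094, adjusted p = 0.621 in Cl10 and was lower in Cl10 than in Cl1 (log2 fold change -0.57, SE 0.095, adjusted p = 0.000333), by edgeR's quasi-likelihood test with Benjamini-Hochberg adjustment. The rise was lost without Cl1 replicate 1 (0.43), which also brought the difference between the clones to -0.37. Its Cl10 value was -0.032 without control replicate 1 and passed as higher without control replicate 2 (0.15). ENO2, the neuronal enolase, was measured at 33.5 and 37.1 CPM in the control libraries, 55.7 and 47.01 CPM in Cl1, and 25.5 and 26.3 CPM in Cl10. Its groups did not overlap, with Cl1 highest and Cl10 lowest. ENO2 rose in Cl1 (log2 fold change 0.56, SE 0.12, adjusted p = 0.0043), fell in Cl10 (log2 fold change -0.43, SE 0.088, adjusted p = 0.00797) and was lower in Cl10 than in Cl1 (log2 fold change -0.99, SE 0.076, adjusted p = 5.77e-07), by edgeR's quasi-likelihood test with Benjamini-Hochberg adjustment. Its rise was lost without Cl1 replicate 1 (0.45), and its fall without Cl10 replicate 1 (-0.40), without Cl10 replicate 2 (-0.45) and with the local median subtracted (-0.20). PKM, pyruvate kinase of most tissues, was measured at 2005 and 2192 CPM in the control libraries, 2687 and 2083 CPM in Cl1, and 2329 and 2252 CPM in Cl10. The Cl10 libraries lay above the control libraries and inside the range of Cl1. PKM passed in none of the 3 comparisons, with log2 fold change 0.20, SE 0.16, adjusted p = 0.399 in Cl1, log2 fold change 0.14, SE 0.094, adjusted p = 0.257 in Cl10 and log2 fold change -0.053, SE 0.093, adjusted p = 0.663 between the clones, by edgeR's quasi-likelihood test with Benjamini-Hochberg adjustment. With each library left out, PKM in Cl1 ranged from 0.022 to 0.36. It passed as higher in Cl10 than in the control without control replicate 2 (0.21), and was 0.068 there without control replicate 1. Between the clones it passed as lower without Cl1 replicate 2 (-0.22), passed as higher without Cl1 replicate 1 (0.12) and was 0.021 by library size scaling.

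LDHA and LDHB encode the subunits of lactate dehydrogenase. LDHA, which favours the making of lactate, was measured at 913 and 1042 CPM in the control libraries, 1854 and 1390 CPM in Cl1, and 1026 and 1022 CPM in Cl10. Cl1 was high, and the Cl10 libraries lay between the control libraries. LDHA rose in Cl1 (log2 fold change 0.74, SE 0.16, adjusted p = 0.00529), gave log2 fold change 0.084, SE 0.099, adjusted p = 0.527 in Cl10 and was lower in Cl10 than in Cl1 (log2 fold change -0.66, SE 0.099, adjusted p = 0.000133), by edgeR's quasi-likelihood test with Benjamini-Hochberg adjustment. Its rise was lost without Cl1 replicate 1 (0.54), and its Cl10 value was -0.021 without control replicate 1 and passed as higher without control replicate 2 (0.18). LDHB, which favours the use of lactate, was measured at 30.97 and 46.6 CPM in the control libraries, 37.2 and 34.3 CPM in Cl1, and 22.8 and 22.2 CPM in Cl10. Cl10 was the low group, and the Cl1 libraries lay between the control libraries, which differed from each other. LDHB gave log2 fold change -0.10, SE 0.16, adjusted p = 0.687 in Cl1, fell in Cl10 (log2 fold change -0.76, SE 0.18, adjusted p = 0.0132) and was lower in Cl10 than in Cl1 (log2 fold change -0.66, SE 0.068, adjusted p = 6.27e-06), by edgeR's quasi-likelihood test with Benjamini-Hochberg adjustment. Without control replicate 2 its Cl10 value was -0.44 and its Cl1 value 0.23, and without control replicate 1 it passed as lower in Cl1 (-0.37). With the local median subtracted, the difference between the clones was -0.27. Another annotated gene shares 33.4% of the LDHB exon bases on the same strand.

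Levels of different genes were compared as CPM per kilobase of exon, averaged over the 2 libraries of a group. The order began with GAPDH, at 1258 CPM per kilobase in the control cells, 1749 in Cl1 and 1049 in Cl10, and ended with SLC2A3, at 0.0901, 0.0334 and 0.0398. Among hexokinases, HK1 made up 74.1% of the summed level per length in the control cells, 76.0% in Cl1 and 77.3% in Cl10. PFKP made up 47.1%, 47.6% and 40.5% of the phosphofructokinase level per length, while PFKL made up 30.3%, 33.3% and 40.1%. LDHA made up 92.6%, 95.7% and 95.7% of the lactate dehydrogenase level per length. The differences between these shares were not tested.

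**Figure D4:**
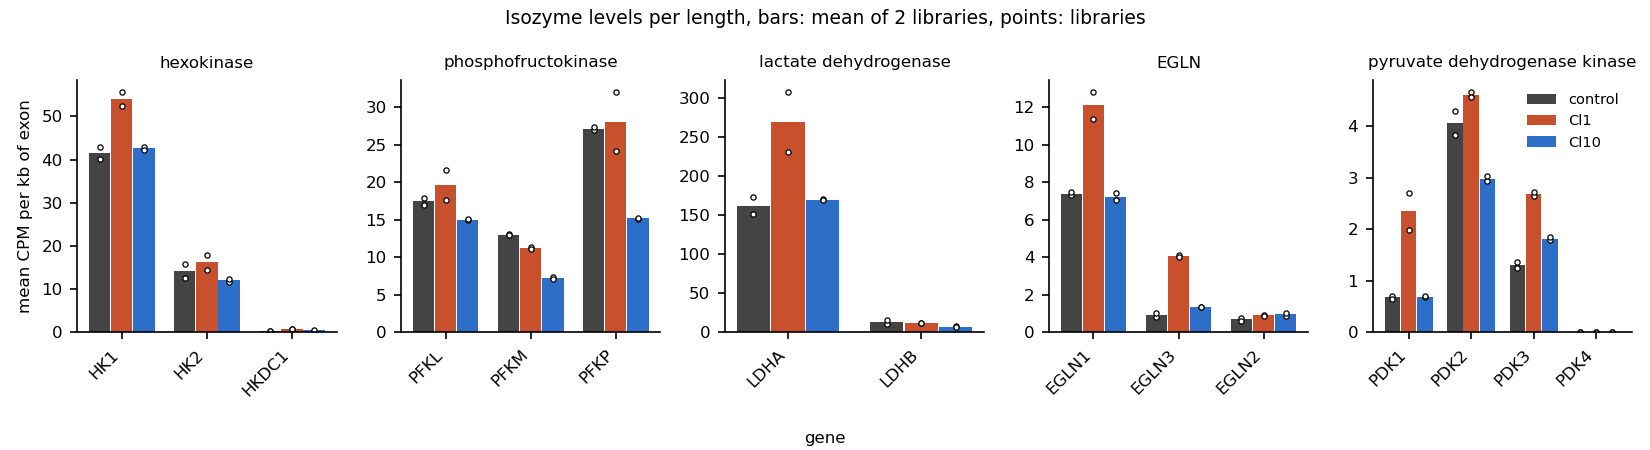
Mean CPM per kilobase of exon (vertical axis, from 0) of the genes of 5 enzyme families (horizontal axis) in control, Cl1 and Cl10, with bars for the mean of 2 libraries and points for the libraries. The PFKP bar stands at 27.1 in the control, 28.1 in Cl1 and 15.2 in Cl10, and the EGLN3 bar at 0.936, 4.07 and 1.36.

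HIF itself comes first among the hypoxia members. HIF1A (ENSG00000100644), the alpha subunit that oxygen destabilises as a protein, was measured at 722 and 653 CPM in the control libraries, 710.1 and 787 CPM in Cl1, and 698 and 697 CPM in Cl10. Both clones overlapped with the control libraries. HIF1A passed in none of the comparisons, with log2 fold change 0.14, SE 0.14, adjusted p = 0.495 in Cl1, log2 fold change 0.038, SE 0.09, adjusted p = 0.762 in Cl10 and log2 fold change -0.10, SE 0.071, adjusted p = 0.265 between the clones, by edgeR's quasi-likelihood test with Benjamini-Hochberg adjustment. With each library left out, HIF1A in Cl1 ranged from 0.0501 to 0.228. In Cl10 it passed as higher without control replicate 1 (0.099) and was -0.035 without control replicate 2, and without Cl1 replicate 1 it passed as lower in Cl10 than in Cl1 (-0.19), while without Cl1 replicate 2 that value was -0.017. HIF protein was not measured.

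EGLN1 and EGLN3 encode prolyl hydroxylases that mark HIF alpha and are themselves HIF targets. EGLN1 was measured at 39.3 and 40.2 CPM in the control libraries, 69.01 and 61.4 CPM in Cl1, and 37.9 and 39.99 CPM in Cl10, with Cl1 high and Cl10 overlapping the control. EGLN1 rose in Cl1 (log2 fold change 0.73, SE 0.11, adjusted p = 0.000495), gave log2 fold change -0.013, SE 0.079, adjusted p = 0.907 in Cl10 and was lower in Cl10 than in Cl1 (log2 fold change -0.74, SE 0.066, adjusted p = 1.89e-06), by edgeR's quasi-likelihood test with Benjamini-Hochberg adjustment. Its 50 nearest tested genes had a median of 0.40 in Cl1, and with the local median of each comparison subtracted EGLN1 was at 0.33 in Cl1 and -0.35 between the clones. Its near-zero Cl10 value turned positive without Cl10 replicate 1 (0.032). An annotated gene that is not in the count table shares 55.8% of its exon bases on the same strand. EGLN3 (ENSG00000129521) was measured at 6.23 and 7.55 CPM in the control libraries, 30.2 and 29.7 CPM in Cl1, and 10.1 and 9.92 CPM in Cl10. The groups stood apart, Cl1 highest and the control lowest. EGLN3 rose 4.41-fold in Cl1 (log2 fold change 2.14, SE 0.13, adjusted p = 4.74e-07), rose less in Cl10 (log2 fold change 0.56, SE 0.13, adjusted p = 0.0123) and was lower in Cl10 than in Cl1 (log2 fold change -1.58, SE 0.077, adjusted p = 1.69e-08), by edgeR's quasi-likelihood test with Benjamini-Hochberg adjustment. Per length, EGLN3 made up 10.4% of the summed EGLN level in the control, 23.8% in Cl1 and 14.2% in Cl10.

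CA9 and CA12 turn carbon dioxide and water into bicarbonate and protons at the cell surface. CA9 (ENSG00000107159, chr9:35673928-35681159, plus strand), a carbonic anhydrase and a common marker of hypoxic tumours, was measured at 12.7 and 13.6 CPM in the control libraries, 94.3 and 68.2 CPM in Cl1, and 11.1 and 11.97 CPM in Cl10. The Cl1 libraries were far above all others, and the Cl10 libraries lay slightly below the control libraries. CA9 rose 6.26-fold in Cl1 (log2 fold change 2.65, SE 0.15, adjusted p = 2.15e-07), gave log2 fold change -0.17, SE 0.10, adjusted p = 0.223 in Cl10 and was 7.05-fold lower in Cl10 than in Cl1 (log2 fold change -2.82, SE 0.12, adjusted p = 7.13e-09), by edgeR's quasi-likelihood test with Benjamini-Hochberg adjustment. The CA9 value in Cl10 passed as lower without control replicate 1 (-0.24) and was -0.11 without Cl10 replicate 1. ARHGEF39, on the opposite strand, shares 35.7% of its exon bases and was lower in Cl1, at 34.2 and 27.1 CPM beside 48.0 and 53.3 CPM in the control libraries. CA12, another surface carbonic anhydrase, was measured at 8.72 and 9.35 CPM in the control libraries, 4.83 and 4.03 CPM in Cl1, and 7.64 and 7.95 CPM in Cl10. Cl1 was the low group, and Cl10 lay just below the control libraries. CA12 fell in Cl1 (log2 fold change -1.01, SE 0.15, adjusted p = 0.000507), gave log2 fold change -0.20, SE 0.11, adjusted p = 0.188 in Cl10 and was higher in Cl10 than in Cl1 (log2 fold change 0.81, SE 0.13, adjusted p = 0.000168), by edgeR's quasi-likelihood test with Benjamini-Hochberg adjustment.

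ADM encodes adrenomedullin, a secreted peptide that widens vessels. It was measured at 46.2 and 54.95 CPM in the control libraries, 101.05 and 92.5 CPM in Cl1, and 89.3 and 88.4 CPM in Cl10, high in both clones. ADM rose in Cl1 (log2 fold change 0.95, SE 0.12, adjusted p = 0.000148) and in Cl10 (log2 fold change 0.83, SE 0.10, adjusted p = 0.000992) and did not pass between the clones (log2 fold change -0.12, SE 0.059, adjusted p = 0.108), by edgeR's quasi-likelihood test with Benjamini-Hochberg adjustment. That last difference passed with the local median subtracted (-0.16) and without Cl1 replicate 2 (-0.18), and was -0.076 without Cl1 replicate 1. ANGPTL4, a secreted inhibitor of lipoprotein lipase, was measured at 7.49 and 9.59 CPM in the control libraries, 22.7 and 13.5 CPM in Cl1, and 6.67 and 6.36 CPM in Cl10. It was high in Cl1, whose libraries differed from each other, and Cl10 lay below the control libraries. ANGPTL4 rose in Cl1 (log2 fold change 1.10, SE 0.20, adjusted p = 0.00204), gave log2 fold change -0.37, SE 0.15, adjusted p = 0.0801 in Cl10 and was lower in Cl10 than in Cl1 (log2 fold change -1.47, SE 0.18, adjusted p = 2.32e-05), by edgeR's quasi-likelihood test with Benjamini-Hochberg adjustment. Without Cl1 replicate 1 its rise was 0.70. Its Cl10 value passed as lower without control replicate 1 (-0.55) and with no filter (-0.39), and was -0.19 without control replicate 2.

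P4HA1 encodes a catalytic subunit of the hydroxylase that lets collagen fold. P4HA1 (ENSG00000122884) was measured at 40.4 and 43.1 CPM in the control libraries, 52.99 and 41.6 CPM in Cl1, and 20.4 and 19.97 CPM in Cl10. The Cl10 libraries were the low ones, and Cl1 overlapped with the control. It gave log2 fold change 0.19, SE 0.12, adjusted p = 0.28 in Cl1, fell by more than 2-fold in Cl10 (log2 fold change -1.03, SE 0.082, adjusted p = 0.00019) and was lower in Cl10 than in Cl1 (log2 fold change -1.23, SE 0.092, adjusted p = 4.78e-07), by edgeR's quasi-likelihood test with Benjamini-Hochberg adjustment. The fall was under 2-fold without control replicate 2 (-0.99) and with the local median subtracted (-0.93). The Cl1 value was 0.026 without Cl1 replicate 1 and 0.35 without Cl1 replicate 2.

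The hypoxia members past 2-fold are shown with their promoters in the same way, so that the core of the response element can be read beside the values. The regions are chr14:33951025-33951324 (minus strand) for EGLN3, chr9:35673678-35673977 (plus) for CA9, chr15:63381797-63382096 (minus) for CA12, chr19:8363905-8364204 (plus) for ANGPTL4 and chr10:73096817-73097116 (minus) for P4HA1.
EGLN3: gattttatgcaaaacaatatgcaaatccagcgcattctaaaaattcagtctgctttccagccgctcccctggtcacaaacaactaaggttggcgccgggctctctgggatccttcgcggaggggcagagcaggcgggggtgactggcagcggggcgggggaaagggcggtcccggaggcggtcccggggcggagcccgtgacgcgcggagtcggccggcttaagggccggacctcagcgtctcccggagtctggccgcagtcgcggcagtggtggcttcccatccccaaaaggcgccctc
CA9: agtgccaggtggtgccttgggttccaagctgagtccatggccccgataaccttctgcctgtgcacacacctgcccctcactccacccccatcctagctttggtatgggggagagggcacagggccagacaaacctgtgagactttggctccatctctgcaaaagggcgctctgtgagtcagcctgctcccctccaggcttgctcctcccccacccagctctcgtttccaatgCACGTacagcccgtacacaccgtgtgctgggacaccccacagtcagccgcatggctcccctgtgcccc
CA12: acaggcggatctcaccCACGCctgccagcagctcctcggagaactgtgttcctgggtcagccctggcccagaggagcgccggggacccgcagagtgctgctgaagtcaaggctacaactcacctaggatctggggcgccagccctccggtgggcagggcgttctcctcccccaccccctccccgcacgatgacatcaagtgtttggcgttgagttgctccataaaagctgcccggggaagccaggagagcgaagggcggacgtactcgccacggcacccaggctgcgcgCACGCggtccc
ANGPTL4: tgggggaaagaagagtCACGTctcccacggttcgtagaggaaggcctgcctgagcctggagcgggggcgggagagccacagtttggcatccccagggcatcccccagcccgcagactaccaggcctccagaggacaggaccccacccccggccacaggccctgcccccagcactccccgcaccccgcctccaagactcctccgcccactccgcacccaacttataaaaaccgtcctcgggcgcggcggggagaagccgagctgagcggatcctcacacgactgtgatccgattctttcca
P4HA1: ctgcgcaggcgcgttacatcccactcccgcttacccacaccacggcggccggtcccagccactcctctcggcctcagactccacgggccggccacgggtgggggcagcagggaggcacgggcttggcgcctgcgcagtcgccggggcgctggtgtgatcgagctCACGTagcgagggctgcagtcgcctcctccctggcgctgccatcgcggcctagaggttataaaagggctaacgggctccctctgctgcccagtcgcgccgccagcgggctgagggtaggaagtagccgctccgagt
The CA9 promoter holds 1 match, on the opposite strand and 18 bases before the start. P4HA1 holds 1 at 86 bases before the start, ANGPTL4 holds 1 at 234 bases before it, and CA12 holds 1 at 234 bases before and 1 at 39 bases after it. The letters of the core are not in the EGLN3 window.

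BNIP3 and BNIP3L mark mitochondria for mitophagy. BNIP3 was measured at 136 and 166 CPM in the control libraries, 354 and 234 CPM in Cl1, and 164 and 157 CPM in Cl10. Both Cl1 libraries were high, and the Cl10 libraries lay between the control libraries. BNIP3 rose in Cl1 (log2 fold change 0.97, SE 0.17, adjusted p = 0.00158), gave log2 fold change 0.11, SE 0.11, adjusted p = 0.467 in Cl10 and was lower in Cl10 than in Cl1 (log2 fold change -0.86, SE 0.13, adjusted p = 0.000119), by edgeR's quasi-likelihood test with Benjamini-Hochberg adjustment. Its Cl10 value passed as higher without control replicate 2 (0.25), was -0.04 without control replicate 1 and was -0.0004 with the local median subtracted, and the difference between the clones was -0.56 without Cl1 replicate 1. BNIP3L was measured at 70.5 and 74.5 CPM in the control libraries, 128 and 114 CPM in Cl1, and 77.1 and 76.7 CPM in Cl10, high in Cl1 and in Cl10 just above the control libraries. BNIP3L rose in Cl1 (log2 fold change 0.75, SE 0.11, adjusted p = 0.000521), gave log2 fold change 0.10, SE 0.079, adjusted p = 0.332 in Cl10 and was lower in Cl10 than in Cl1 (log2 fold change -0.65, SE 0.063, adjusted p = 3.61e-06), by edgeR's quasi-likelihood test with Benjamini-Hochberg adjustment. Its Cl10 value passed as higher without control replicate 2 (0.14) and with the local median subtracted (0.25), and was 0.051 without control replicate 1.

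NDRG1, a stress protein induced by hypoxia and by iron loss, was measured at 186 and 172 CPM in the control libraries, 386 and 294 CPM in Cl1, and 191 and 182 CPM in Cl10. Cl1 was high, and Cl10 overlapped with the control libraries. NDRG1 rose in Cl1 (log2 fold change 0.94, SE 0.14, adjusted p = 0.000491), gave log2 fold change 0.075, SE 0.084, adjusted p = 0.505 in Cl10 and was lower in Cl10 than in Cl1 (log2 fold change -0.86, SE 0.094, adjusted p = 9.63e-06), by edgeR's quasi-likelihood test with Benjamini-Hochberg adjustment. Its Cl10 value passed as higher without control replicate 1 (0.12), was 0.019 without control replicate 2 and was -0.027 with the local median subtracted.

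The other 6 members are given as log2 fold changes. HK1, the housekeeping hexokinase, rose in Cl1 (0.39), and the call was lost by library size scaling (0.32), without Cl1 replicate 1 (0.37) and without Cl1 replicate 2 (0.42). With all libraries, ENO1, P4HA2, ANKRD37, HILPDA and KDM3A lay between -0.12 and 0.43 in Cl1 and did not pass. HILPDA passed without control replicate 2 (0.62), without Cl1 replicate 2 (0.63) and with no filter (0.41), ENO1 (0.44) and P4HA2 (0.28) without control replicate 2, and KDM3A without control replicate 1 (0.36). Smaller values came without Cl1 replicate 1 for HILPDA (0.20), ENO1 (0.16) and P4HA2 (0.11), without control replicate 1 for HILPDA (0.26) and without control replicate 2 for KDM3A (0.16), and with the local median subtracted P4HA2 was near 0. In Cl10, P4HA2 and KDM3A fell, at -0.28 and -0.33, and the other 4 lay between -0.57 and 0.051 and did not pass. Both falls were lost without Cl10 replicate 1 (-0.29 and -0.30) and without Cl10 replicate 2 (-0.26 and -0.34), and that of KDM3A with the local median subtracted (-0.095), where P4HA2 was -0.54. Without control replicate 1, ENO1 (-0.20), ANKRD37 (-0.68) and HILPDA (-0.26) passed as lower, as did ANKRD37 with no filter (-0.58), and without control replicate 2 HILPDA was 0.095 and ENO1 -0.0054. Cl10 was lower than Cl1 for HK1, ENO1, P4HA2, HILPDA and KDM3A, between -0.58 and -0.34. Without Cl1 replicate 1 HILPDA was -0.29 and ENO1 -0.26, and with the local median subtracted KDM3A was -0.37. Between the clones ANKRD37 was at -0.45 and passed only with the local median subtracted (-0.58). UFSP2, on the opposite strand, shares 40.3% of the ANKRD37 exon bases, so its level of 1.18 to 2.15 CPM is uncertain.

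The 2 libraries of Cl1 differed across the members. Replicate 1 had the higher CPM for 37 of the 38, with a median log2 difference between the replicates of 0.30, beside 0.028 over the 19466 genes tested in both clones. In the control cells replicate 1 was higher for 11 of 38 (median -0.093), and in Cl10 for 24 of 38 (median 0.020). The summed glycolysis members gave 20490 and 16190 CPM in Cl1, beside 12320 and 13310 CPM in the control libraries and 11950 and 11700 CPM in Cl10. The hypoxia members summed to 2156 and 1912 CPM in Cl1, beside 1435 and 1402 in the control libraries and 1442 and 1425 in Cl10. What part the spread between the Cl1 libraries had in the calls was tested only by leaving out each library.

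The calls of the clones, which share the control libraries, can be set side by side. PFKFB3, EGLN3 and ADM passed as higher in both clones. GPI, ALDOC, TPI1, PGK1 and ENO2 passed as higher in Cl1 and as lower in Cl10. Another 8 glycolysis and 6 hypoxia members passed as higher in Cl1 and did not pass in Cl10, among them SLC2A1, PDK1, LDHA, CA9, BNIP3 and NDRG1. PFKM, PFKP, LDHB, SLC16A3, P4HA1, P4HA2 and KDM3A did not pass in Cl1 and were lower in Cl10. Of the 19466 genes tested in both clones, 7.14% passed as higher in both, 0.735% as higher in Cl1 and lower in Cl10, 4.39% as higher in Cl1 alone and 13.6% as lower in Cl10 alone. What the shared control libraries add to these patterns was not worked out.

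The promoter table used here, made from RefSeq, held 34 of the 38 members, and SLC2A3, BNIP3L, HILPDA and NDRG1, which it lacks, are named only. The core of the response element was found in 17012 of 35116 promoters of this length (48.4%), and in 67.7% of the 62 promoters of members. With 1 promoter for each gene, it was found in 18 of 22 glycolysis members (81.8%) and 10 of 12 hypoxia members (83.3%), beside 7480 of 12007 genes tested in Cl1 against control (62.3%). The promoter taken lay 204 to 3283 bases from the canonical start for GPI, HK1, PFKP, GAPDH, P4HA2, PGAM1 and PFKM. Of these, PFKP, P4HA2, PGAM1 and PFKM did not hold the core. Members that rose in Cl1 held it in 17 of 20 promoters (85.0%), and the other members in 11 of 14 (78.6%). The letters ACGTG stood in 65.0% of the promoters that rose and 28.6% of the others, and GCGTG in 40.0% and 57.1%, differences that were not tested. ACGTG alone was found in 50% of the member promoters, beside 26.0% of those of genes tested, and GCGTG in 47.1%, beside 50.2%. A match describes letters in a window, and binding was not measured.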

How the data were processed

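RNA of A253 cells was sequenced from poly(A)-selected libraries. For the authors' steps the paper names HISAT2 (genome hg38), HTSeq and DESeq2, and the submitters' processing notes name StringTie and DESeq. The kit is given as Illumina Stranded mRNA Prep in the labels and as TruSeq in the paper. The gene annotation, strand setting and handling of multiply mapped reads are not given, so overlapping and opposite-strand genes are uncertain. The deposited values are raw counts per gene, without normalization, of 47016495 to 70986593 per library. Differences were fitted on all genes with edgeR 4.0.16 in R 4.3.3 (filterByExpr, TMM, glmQLFit, glmQLFTest, Benjamini-Hochberg), each comparison with only its own libraries. SE is the absolute unshrunk log2 fold change over the square root of F. The fit was tested on counts simulated with independent replicates, from mean levels of these data and edgeR's own dispersions. This tests the code and not the assumptions behind the calls. Lengths and coordinates are of GENCODE v44, with 58207 identifiers matched. Alternatives were DESeq2 1.42.0, its size factors, library size scaling, no filter, at least 10 counts in every library, 1 fit over the 6 libraries, a replicate block, subtraction of the median of the 50 nearest tested genes, and leaving out each library. Values in every library are given for members that passed with more than a 1.5-fold change in a comparison and for GAPDH, LDHA, HIF1A, HK2, PFKL, PFKM, PFKP and PKM. Of each further list (HIF components, further HIF targets, other glycolytic isoforms, gluconeogenesis, pentose phosphate, glycogen, pyruvate entry and TCA cycle), up to 4 genes that passed with the largest change and a mean of at least 5 CPM are named. Erythroid markers were checked too. The members and lists were chosen with earlier results of these data known.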

Additional observations from a re-analysis of the deposited data

Results flagged for a closer look

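The clones were compared directly, Cl10 against Cl1, and 33 members stand here because that test of the difference between the clones passed, by edgeR's quasi-likelihood test with Benjamini-Hochberg adjustment, with 2 libraries against 2. Of the 19818 genes tested, 49.0% passed. The values are log2 fold changes of Cl10 against Cl1.

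Among glycolysis members, Cl10 was lower for SLC2A1 (-1.0), HK1 (-0.34), HK2 (-0.42), GPI (-0.69), PFKL (-0.38), PFKM (-0.62) and PFKP (-0.88). It was also lower for ALDOA (-0.96), ALDOC (-1.24), TPI1 (-0.86), GAPDH (-0.73), PGK1 (-1.11), PGAM1 (-0.57) and ENO1 (-0.44), and for ENO2 (-0.99), PFKFB3 (-0.20), PFKFB4 (-0.58), LDHA (-0.66), LDHB (-0.66), PDK1 (-1.77) and SLC16A3 (-1.42).

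Among hypoxia members, Cl10 was lower for EGLN1 (-0.74), EGLN3 (-1.58), CA9 (-2.82), ANGPTL4 (-1.47), BNIP3 (-0.86), BNIP3L (-0.65), P4HA1 (-1.23), P4HA2 (-0.51), NDRG1 (-0.86), HILPDA (-0.52) and KDM3A (-0.58). Cl10 was higher for CA12 (0.81).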

How the results depend on the processing

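Leaving out a library left 1 in a group, which was assumed to vary like the other group. The count of genes passed in Cl1 against control then ranged from 2718 to 7146 (5064 with all libraries), that of glycolysis members higher from 6 to 15, and that of glycolysis members lower from 0 to 1. In Cl10 against control, genes passed ranged from 5141 to 11888 (8439 with all libraries), glycolysis members higher from 1 to 6 and lower from 5 to 13, with a median from -0.26 to -0.22, and hypoxia members higher from 2 to 4 and lower from 1 to 7, with a median from -0.23 to -0.035. In Cl10 against Cl1, the glycolysis median ranged from -0.85 to -0.61. The cause was not tested.

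With DESeq2's test and with at least 10 counts in every library, 0 glycolysis members were lower in Cl1, beside 11.2% and 13.2% of all genes. SLC2A3, with 7 counts in a library, was then not called or not tested. With the median of the 50 nearest tested genes subtracted, the hypoxia median was 0.45 in Cl1 (0.73 without it). In Cl10 the glycolysis median was then -0.079 (-0.22 without it), and 2 glycolysis members were higher, beside 19.9% of all genes. With no filter, 5 hypoxia members were lower in Cl10, beside 14.9% of the 34839 genes tested. With the filter, 3 were lower, beside 21.8% of 19875 genes. The cause was not tested. Signs turned for PFKP in Cl1 (-0.0097) and PKM between the clones (0.021) by library size scaling, and for PDK1 (-0.071), BNIP3 (-0.0004) and NDRG1 (-0.027) in Cl10 with the local median subtracted. With each library left out, signs turned within the range of PFKP (-0.14 to 0.24) and LDHB (-0.37 to 0.23) in Cl1. In Cl10 they turned for PGAM1 (-0.032 to 0.15), LDHA (-0.021 to 0.18), PDK1 (-0.042 to 0.089), HIF1A (-0.035 to 0.099), EGLN1 (-0.055 to 0.032), BNIP3 (-0.040 to 0.25) and HILPDA (-0.26 to 0.095). Between the clones they turned for PKM (-0.22 to 0.12) and SLC2A3 (-0.28 to 0.99). Among the values that turned, that of PKM between the clones without Cl1 replicate 1 passed the test and the rest did not.

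Of the 32 members described singly, 15 of 23 calls in Cl1, 9 of 13 in Cl10 and 27 of 28 between the clones kept their direction and side of the threshold in all alternatives run. Of values that did not pass, 5 of 9 in Cl1, 1 of 19 in Cl10 and 0 of 4 between the clones did so.

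Replicates share only a number in the labels, and the replicate deviations of the groups had correlations across genes of -0.073, -0.022 and 0.025 in the 3 comparisons, so nothing was paired. With replicate number as a block, 4841 genes passed in Cl1, 8681 in Cl10 and 9894 between the clones, with 10 glycolysis members higher in Cl1 and 7 lower in Cl10; in Cl1, GPI (0.43), TPI1 (0.54), GAPDH (0.49), HK1 (0.39) no longer passed and HILPDA (0.42) passed; in Cl10, GPI (-0.26), TPI1 (-0.31), PGK1 (-0.32), P4HA2 (-0.28) no longer passed and SLC2A3 (-1.19), ANGPTL4 (-0.36) passed.

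Depth limits SLC2A3 most, with 7 to 54 counts in a library. With 2 libraries in a group, a value that misses the threshold is not shown to be equal. Each clone is a single clone, so clone and deletion cannot be told apart. No protein of a member and no lactate or oxygen level was measured.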

Other observations

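Further genes of the same pathways were counted in the same fits, by the same edgeR test, and values in parentheses are log2 fold changes against control. Of all genes tested, 12.4% were higher and 12.8% lower in Cl1, and 20.6% were higher and 21.8% lower in Cl10. Of 14 tested HIF pathway components, 2 were higher and 2 lower in Cl1, and 4 were higher and 2 lower in Cl10. EPAS1, the other main HIF alpha subunit, rose in both clones, at 201 and 161 CPM in the control libraries, 355 and 322 CPM in Cl1, and 336 and 335 CPM in Cl10 (log2 fold change 0.92 in Cl1 and 0.91 in Cl10). ARNT2, a HIF beta subunit, fell in both (-0.64 and -1.66), while RBX1 fell (-0.68) and CREBBP rose (0.81) in Cl10. Of further HIF targets, 9 of 26 tested were higher and 4 lower in Cl1 (median 0.22), and 4 of 27 were higher and 11 lower in Cl10 (median -0.22). LOX, which crosslinks collagen, rose in both clones (1.72 and 0.98), and STC2 fell in both (-1.44 and -1.54). DDIT4, an inhibitor of mTORC1 signalling, was measured at 466 and 389.7 CPM in the control libraries, 263 and 256 CPM in Cl1, and 79.3 and 78.4 CPM in Cl10 and fell in both (-0.70 and -2.42). PPFIA4 rose in Cl1 (1.58) and did not pass in Cl10 (-0.22).

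Among other glycolytic isoforms, 2 of 16 tested were higher and 1 lower in Cl1, and 5 of 15 were higher and 3 lower in Cl10. SLC16A7, a monocarboxylate transporter, fell in Cl10 (-1.93), where SLC2A6 (0.98) and ENO3 (0.67) rose, and PFKFB2 rose in both clones (0.61 and 0.45). In gluconeogenesis, 2 of 6 tested genes were lower in each clone: PCK2 (-1.30 in Cl1 and -1.50 in Cl10) and G6PC3 (-0.52 and -0.52). In the pentose phosphate pathway, 1 of 8 was lower in Cl1 (PGD, -0.35) and 4 in Cl10 (PGLS -0.60, PGD -0.54, RPIA -0.51 and TKT -0.32). Of 10 glycogen genes, 5 were higher in Cl1, among them PGM2 (0.74), GYS1 (0.59) and PGM1 (0.57), and 4 were higher and 1 lower in Cl10, with UGP2 at 0.43. For pyruvate entry and the TCA cycle, 3 of 27 were higher and 1 lower in Cl1, and 2 were higher and 11 lower in Cl10. MPC1, a subunit of the mitochondrial pyruvate carrier, fell in both clones (-0.90 and -0.92), PDK3 rose in both (1.06 and 0.50), and OGDH (-1.13) fell in Cl10. Of 3 erythroid markers, 0 had a mean of at least 1 CPM, with sums of 0.0401 to 0.431 CPM, and HBA2 fell in Cl1 (-2.33).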
